A study of Mus musculus with 12 samples.

Results

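The non-coding snoRNA host genes Gas5, Snhg1, Snhg3, Snhg5, Snhg6, Snhg8, Snhg12 and Zfas1 were followed through 2 lists of LARP1 binding regions, 1 from control and 1 from Rnmt cKO CD4 T cells. The study calls these cells naive. A region was assigned to a host if at least 1 nt of it fell in an exon of any transcript of the gene, strand included. These 8 genes were 8 of 55450 annotated genes, and they held 6 of 3189 regions in the control list and 6 of 2367 regions in the Rnmt cKO list. Gas5, Snhg6, Snhg8 and Zfas1 had a region in both lists, Snhg1 had one in the control list alone, Snhg5 was called only in the Rnmt cKO list, and Snhg3 and Snhg12 had none in either.

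Small nucleolar RNAs (snoRNAs) guide the chemical modification of ribosomal RNA. C/D box snoRNAs direct ribose methylation and H/ACA box snoRNAs direct pseudouridylation. Most snoRNAs of mammals are cut from the introns of longer host transcripts. Some hosts encode proteins, many of them ribosomal proteins or translation factors, whereas others carry no long open reading frame and leave a spliced RNA that is exported and often degraded during translation. Many hosts of either kind start transcription in a 5′ terminal oligopyrimidine (TOP) stretch, a cytosine followed by a run of pyrimidines directly after the cap. LARP1, an RNA binding protein, recognises such a stretch together with the cap, and RNMT is the methyltransferase that adds the N7 methyl group to the cap guanosine.

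The experiment used eCLIP, in which ultraviolet light fixes proteins to the RNA they touch in living cells, the protein is immunoprecipitated with its RNA fragments, and cDNA ends mark the crosslinked bases. The cells were CD4 T cells from lymph nodes of female mice, purified with magnetic beads and irradiated at 400 mJ and 254 nm. Control mice were Rnmt fl/fl CD4cre - and Rnmt cKO mice were Rnmt fl/fl CD4cre +, so both groups carried floxed Rnmt alleles. In the second group CD4-Cre removes exon 3 during the double-positive stage of thymocyte development, so the T cells matured after the deletion. Each genotype gave 1 LARP1 immunoprecipitation with 1 list of regions. No difference between the lists therefore has a replicate check, and genotype and library cannot be told apart. Neither Rnmt nor its cofactor gene Ramac had an exonic region in either list, so the deletion could not be checked in these data. Among T cell genes, Cd4 had 1 region in each list, Cd3d had 1 in control and 2 in Rnmt cKO cells, and Cd3e, Cd3g, Ccr7, Il7r and Lef1 had 0 in both. The presence of a region depends on how much of an RNA the cells hold as well as on how LARP1 contacts it, and the level of the host RNAs was not measured in these lists.

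The bases under the regions are shown first, because the position of the regions on them is what the hosts had in common. Each line below gives the 10 bases before an annotated transcript start and the first 20 bases from it, read 5′ to 3′ on the strand of the gene in GRCm38, and capitals mark bases that lay in a region of either list. For the 6 hosts with a region, the start is the one nearest to it. For Snhg6 only 1 base before the start was annotated as transcribed, so its line is shorter.
Gas5, chr1:161035157-161035186, plus strand: catctcagcCTTTCggagctgtgcggcatt
Snhg6, chr1:9944098-9944118, minus strand: cTTTCTCggcagcgccgtaga
Snhg8, chr3:123508314-123508343, minus strand: cagaagtctctTTggctgcgatccgcctac
Zfas1, chr2:167063213-167063242, plus strand: gctctcgtccttTCgttccggcggctccta
Snhg1, chr19:8723477-8723506, plus strand: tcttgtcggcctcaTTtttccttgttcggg
Snhg5, chr9:88522869-88522898, minus strand: cgggctcgttcTTTTacgacggagcctaag

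In all 6 windows the region lay inside a run of pyrimidines. In 5 of them this run spans the annotated start, and in Snhg1 it begins 4 nt after it, behind a single A. In the control list, the 5 regions near a start covered 13 bases, of which 11 were T and 2 were C. In the Rnmt cKO list, the 5 regions near a start covered 17 bases, of which 12 were T and 5 were C. No A or G lay in any of these 10 regions. In windows of 15 nt around the 5′ bases of all 6 regions of a list, C and T made up 70.2% in control and 70.6% in Rnmt cKO cells. Inside regions of ribosomal protein genes near a start, 273 of 282 bases were pyrimidines in the control list and 555 of 738 in the Rnmt cKO list. In protein-coding snoRNA hosts outside ribosomal protein genes, these counts were 41 of 45 and 49 of 56. In other non-coding hosts they were 3 of 4 and 15 of 21. All these shares were below those of the 8 hosts, which rest on 13 and 17 bases. T alone made up 37 of 45 and 42 of 56 bases in those protein-coding hosts. A high share of T was thus not limited to the 8 hosts. T shares were lower in ribosomal protein genes and other non-coding hosts. Shares over all exonic regions were not computed. Region width was not matched between the sets, with 84 and 97 regions near a start in ribosomal protein genes against 5 in each list for the hosts. In the 15 nt windows around such regions, by contrast, C and T made up 80.5% and 77.3% in ribosomal protein genes against 72.5% and 72.9% in the hosts, for control and Rnmt cKO.

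The 2 hosts without a region are shown for comparison, each at the annotated start that is followed by the longest unbroken run of pyrimidines.
Snhg3, chr4:132353614-132353643, minus strand: gcgggtctgtctctctaggcgtcgctctct
Snhg12, chr4:132308666-132308695, plus strand: cgttctcagtcctttctcgcttcatccgcg
Both hosts thus had an annotated start with a C followed by pyrimidines. The starts shown above for Snhg1 and Snhg5 also begin with C, and those for Gas5, Snhg6, Snhg8 and Zfas1 with T. Within a few bases, Gas5, Snhg6 and Zfas1 have another annotated start that begins with C, with runs of 5, 7 and 6 nt. In Snhg8 the start that begins with C, with a run of 5 nt, is the 5′-most one. The run counted from the start itself was 6 nt in Snhg3 and 8 nt in Snhg12. Among the other 6 it was 4 nt in Gas5, 6 nt in Snhg6, 3 nt in Snhg8, 4 nt in Zfas1, 3 nt in Snhg1 and 5 nt in Snhg5. The longest run anywhere in a window was 6 nt in Gas5, 9 nt in Snhg1 and Snhg12, and 7 nt in the other 5. These runs are not a like comparison, because the starts of Snhg3 and Snhg12 were picked for their runs. With the same choice in every host, the longest run from a start was 6 nt in Gas5, Snhg1, Zfas1 and Snhg3, 7 nt in Snhg5 and Snhg6, 5 nt in Snhg8 and 8 nt in Snhg12, so the runs of hosts with and without a region overlapped.

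RefSeq sequences around gene starts (GRCm38.p6) set these runs beside those of other genes. In each, the longest run made only of C and T was counted on the strand of the gene, within the same 30 nt around the RefSeq start. Of the members, 7 matched, with 8 windows. A run of at least 6 nt was found in 5 of these 8 windows and in 28.7% of all 32851 windows. A run of at least 7 nt was found in 4 of 8, those of Snhg1, Snhg5, Snhg8 and Snhg12, and in 17.9% of all windows. Such a match describes the letters and not a binding site.

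In each list 5 of the 8 hosts had an exonic region, where the background over all annotated genes was 1.15% in control and 1.36% in Rnmt cKO cells. That background includes all genes that these T cells do not transcribe. No host had a region outside its exons. In Snhg1, Snhg8, Snhg12 and Zfas1 the exons of all transcripts together cover the whole gene, so no such region was possible there. The opposite strand of the hosts held no region in either list. No region of a host overlapped an exon of another gene on the same strand.

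Of the 6 regions, 5 lay near a start in each list (83.3%, with a 95% Wilson interval from 43.6 to 97.0%). Near means that the 5′ end of the region was within 50 nt of the nearest annotated start of the gene. Among all exonic regions this share was 36.7% in control and 25.1% in Rnmt cKO cells. The distances of the host regions were shorter than the limit requires. Offsets from the nearest start were 0 to 4 nt in control and 0 to 2 nt in Rnmt cKO cells. Gas5 has several annotated starts close together there, and its nearest start differed between the lists. From the start used for control, its Rnmt cKO region began at -1 nt. The hosts have up to 20 distinct annotated starts. Bases within 50 nt of any of them made up between 8.74% of the exonic bases in Zfas1 and 32.2% in Snhg1. Measured from the 5′-most annotated start alone, only the regions of Snhg1 and Snhg6 in the control list, and of Snhg5 and Snhg6 in the Rnmt cKO list, lay within 50 nt.

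**Figure D1:**
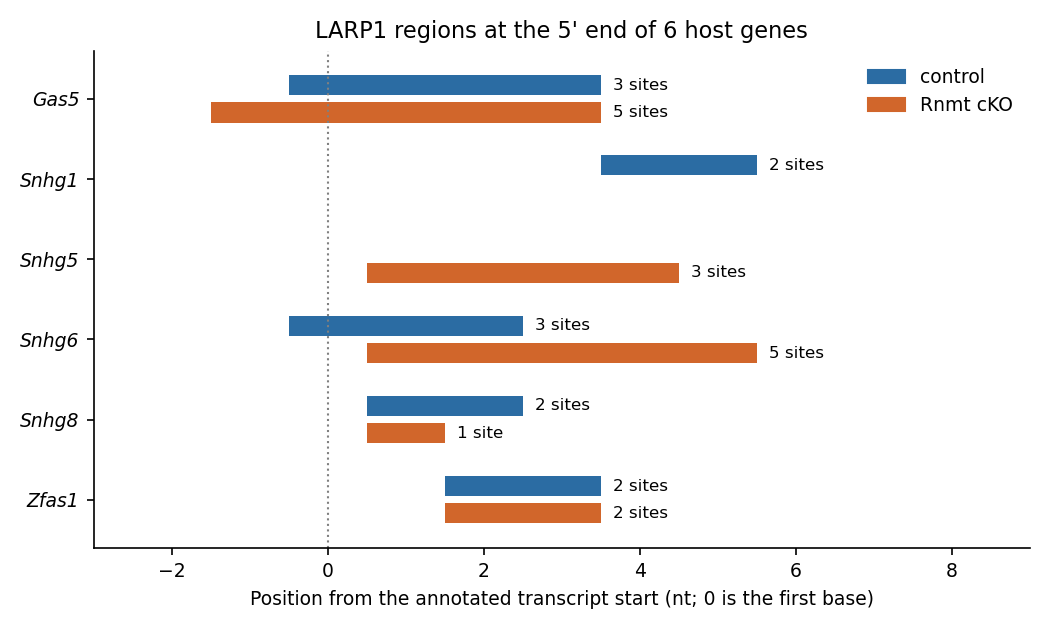
Regions at the 5′ end of the 6 hosts that have one, by list. The horizontal axis is the position in nt from the annotated start nearest to the control region (Snhg5, to the Rnmt cKO region), with 0 as the first base, bars cover the bases of a region, and the number of crosslink sites stands beside each bar. All bars lie within a few bases of the start, and the bars of both lists overlap in Gas5, Snhg6, Snhg8 and Zfas1.

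The lists give each region a score, which is the sum of the scores of its crosslink sites. Because each library has a model of its own, a score was read only within a list, as a rank (1 is the highest score) and as a percentile, the percentage of regions in the same list with a lower score. Score values given below for both lists are not on a common scale.

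Gas5 (growth arrest specific 5), whose exported RNA is known to accumulate when cells stop growing, holds 10 annotated snoRNA entries in 9 separate stretches, among them the C/D box snoRNAs Snord47, Snord78 and Snord80. The gene spans chr1:161034422-161038539 on the plus strand and has 25 annotated transcripts. Its region at the start was the best-ranked of all host regions in both lists. In the control list it covered chr1:161035167-161035170 with 3 sites of scores 88.2, 53.1 and 60.7, and its summed score of 202 ranked 178 of 3189 (percentile 94.4). In the Rnmt cKO list it covered 1 base more, chr1:161035166-161035170, with 5 sites of scores 25.6, 48.7, 11.1, 16.8 and 74.8, and its summed score of 177 ranked 157 of 2367 (percentile 93.4). The bases of the control region were thus all in the second list too, and the percentile there was lower by 1.05 points (-1.05, Rnmt cKO minus control). It lay 224 nt upstream of the first snoRNA that follows it. The start used here is not the 5′-most one of the gene, which lies 745 nt upstream.

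Gas5 held the only host region away from a start. This inner region was a single base, chr1:161035789, in both lists, 622 nt downstream of the start described above, and exonic in 18 of the 25 transcripts. It lay 316 nt after one snoRNA and 61 nt before the next, outside every snoRNA. In the control list its score of 8.71 ranked 1450 (percentile 54.5), and in the Rnmt cKO list its score of 1.73 ranked 1856 (percentile 21.6). Unlike the bases at the starts, the base was a purine, printed here as the capital in its 30 nt window.
Gas5 inner region, chr1:161035775-161035804, plus strand: atgggacatcttgtGggatctcacagccag
Of all scores added up over a list, the 6 host regions held 0.205% in control and 0.207% in Rnmt cKO cells. Gas5 alone made up 56.4% of the summed score of the host regions in control and 54.3% in Rnmt cKO cells.

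Snhg6 (chr1:9941959-9944118, minus strand) carries 1 snoRNA, the C/D box Snord87. Its control region, chr1:9944115-9944117, began on the annotated start and had 3 sites of scores 0.393, 0.0590 and 22.1, so that 1 site carried nearly all of its score of 22.6. It ranked 819 (percentile 74.3). The Rnmt cKO region, chr1:9944112-9944116, began 1 nt further in and reached 3 nt further, with 5 sites of scores 3.91, 44.9, 5.18, 0.939 and 10.8. Its score of 65.8 ranked 330 (percentile 86.1), which was 11.7 percentile points above the control region.

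Zfas1 (chr2:167062934-167065862, plus strand) overlaps the 5′ end of the protein-coding gene Znfx1 on the opposite strand and hosts 3 snoRNAs that include the C/D box Snord12. Its region covered the same 2 bases in both lists, chr2:167063225-167063226, 2 nt from the nearest annotated start and 291 nt from the 5′-most one. The 2 sites scored 14.5 and 7.53 in the control list and 20.2 and 26.0 in the Rnmt cKO list. The region ranked 875 (percentile 72.6) in the control list and 425 (percentile 82.0) in the Rnmt cKO list, 9.48 points higher.

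Snhg8 (chr3:123507552-123508404, minus strand) carries the H/ACA box snoRNA Snora24. Its control region, chr3:123508331-123508332, had 2 sites of scores 70.4 and 8.93, and its summed score of 79.3 ranked 347 (percentile 89.1). In the Rnmt cKO list only the base at chr3:123508332 was called, with a score of 37.7 that ranked 491 (percentile 79.3). The region stayed 1 nt from the start and was 9.86 points lower in its list, in a comparison that rests on 1 site in the second list.

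Snhg1 (chr19:8723475-8726443, plus strand), the host of Snord22 and 7 other annotated snoRNAs, had a region in the control list alone. It covered chr19:8723491-8723492, 4 nt from the nearest start and 16 nt from the 5′-most one, with 2 sites of scores 10.1 and 29.2. Its score of 39.2 ranked 536 (percentile 83.2), above the control regions of Snhg6 and Zfas1, and no region of the Rnmt cKO list lay anywhere in the gene. Whether the Rnmt cKO library held reads at this position was not tested, because the lists hold called regions and not reads.

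Snhg5 (chr9:88521050-88522929, minus strand), the host of the C/D box snoRNAs Snord50a and Snord50b, was called in Rnmt cKO cells alone. Its region covered chr9:88522884-88522887, 1 nt from the nearest start and 42 nt from the 5′-most one. Its 3 sites had scores of 0.0172, 0.117 and 0.713, and the sum of 0.848 ranked 2118 of 2367 (percentile 10.5). This was the lowest percentile of any host region.

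Snhg3 (chr4:132348014-132353686, minus strand), the host of the H/ACA box snoRNAs Snora73a and Snora73b, and Snhg12 (chr4:132308623-132311024, plus strand), which hosts the H/ACA box Snora16a, Snora44 and Snora61 and the C/D box Snord99, had 0 regions in both lists. The lists give no read depth, so an upper limit for LARP1 contact with these RNAs could not be set. Hosts of H/ACA and of C/D box snoRNAs were both found with and without regions across the lists. The 4 hosts with a region in both lists carried 15 of the 32 annotated snoRNA entries of the 8 genes, and the region was never over a snoRNA. From the regions at the starts to the next snoRNA downstream, the distance was 224 nt in Gas5, 247 nt in Zfas1, 265 nt in Snhg8, 501 nt in Snhg1 and 1566 nt in Snhg6 in the control list, and 1016 nt in Snhg5 in the Rnmt cKO list.

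**Figure D2:**
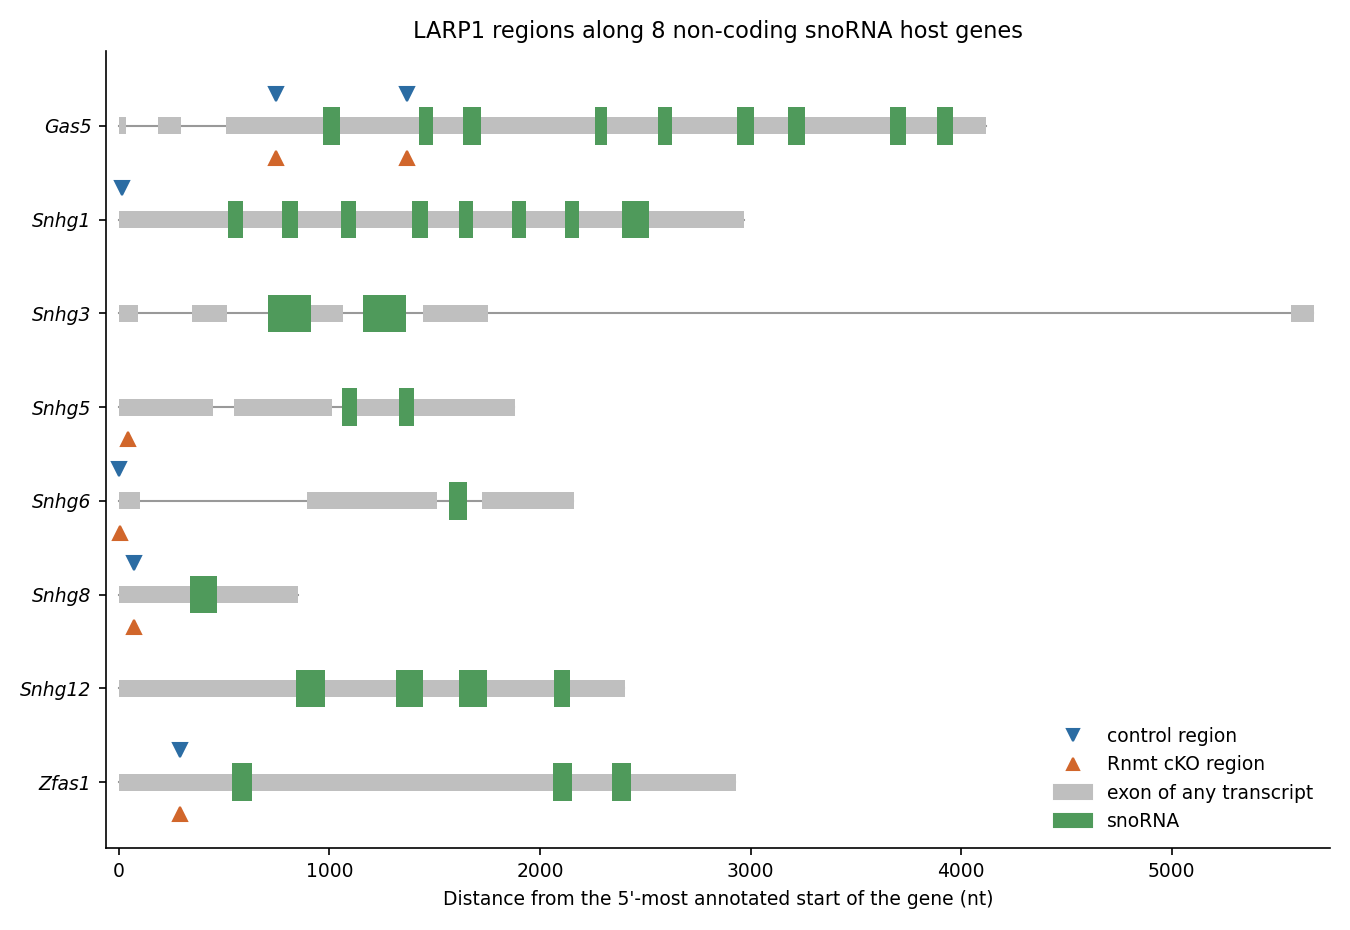
The 8 hosts drawn to scale from the 5′-most annotated start, in nt along the transcribed strand. Grey boxes are exons of any transcript, retained introns included, green boxes are annotated snoRNAs, downward triangles are control regions and upward triangles are Rnmt cKO regions. All regions lie outside the green boxes, and all but the inner Gas5 region lie upstream of the first snoRNA.

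Region size was compared through the number of crosslink sites. The 6 host regions summed to 13 sites in control and 17 in Rnmt cKO cells. Regions of at least 2 sites were 5 of 6 in the control list, where 28.3% of all exonic regions had as many, and 4 of 6 in the Rnmt cKO list, where 49.9% did. Among shared regions, the Gas5 start region and Snhg6 each had 3 sites in control and 5 in Rnmt cKO cells, Zfas1 and the inner Gas5 region had the same number in both, and Snhg8 had 2 and 1. The whole Rnmt cKO list also held more sites in fewer regions, with 4518 sites in 2367 regions against 4018 in 3189, so the larger number of sites in Gas5 and Snhg6 cannot be told apart from that difference between the lists.

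Shared regions, which overlap a region of the other list, were 5 of 6 in each list. The background among all exonic regions was 54.4% in control and 33.0% in Rnmt cKO cells. In the control list the share was 92.2% in ribosomal protein genes, 83.6% in protein-coding snoRNA hosts and 80.0% in other non-coding hosts. The same sets had 52.7%, 44.3% and 57.1% in the Rnmt cKO list. The median percentile of the host regions was 78.8 in control and 80.7 in Rnmt cKO cells. With regions of at least 2 sites alone, these medians were 47.1 and 68.7. Within the shared regions, 2 had a higher percentile in the Rnmt cKO list (Snhg6 and Zfas1) and 3 a lower one (both Gas5 regions and Snhg8), with a median difference of -1.05 points. Over all 449 shared exonic regions, 235 (52.3%) had a higher percentile in the Rnmt cKO list and 214 a lower one, with a median difference of 0.176 points and quartiles of -3.99 and 8.81. Snhg6 and Zfas1 were above the upper quartile, Snhg8 was below the lower quartile, and the inner Gas5 region, at -32.9 points, was below the 5th percentile of -29.3. No test of these differences was possible with 1 library per genotype.

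The order of Gas5 and Snhg8 between the lists depended on how regions were ranked. The start region of Gas5 was 11.5 points higher in the Rnmt cKO list when only regions of at least 2 sites were ranked, and 1.75 points higher when scores that occur 20 or more times were left out. Such repeated scores made up 34.2% of the control list and 1.48% of the Rnmt cKO list, and no host region had one. Ranked by mean score per site, Snhg8 was 2.01 points higher in the Rnmt cKO list. The difference of Snhg8 was -18.0 points among regions above the median score of their list and -4.52 points without repeated scores. Snhg6 and Zfas1 kept their sign, but their differences depended on the ranking too. With regions of at least 2 sites, Snhg6 was at percentile 30.3 in control and 72.2 in Rnmt cKO cells, a difference of 41.9 points, and the difference of Zfas1 was 35.4 points. Among regions above the median score, the differences were 27.5 and 23.2 points. Without repeated scores, Snhg6 was at percentiles 64.8 and 85.8 and Zfas1 at 64.0 and 81.8. Snhg6 and Zfas1 were higher in the Rnmt cKO list, and the inner Gas5 region lower, under every alternative in which the pair could be ranked.

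**Figure D3:**
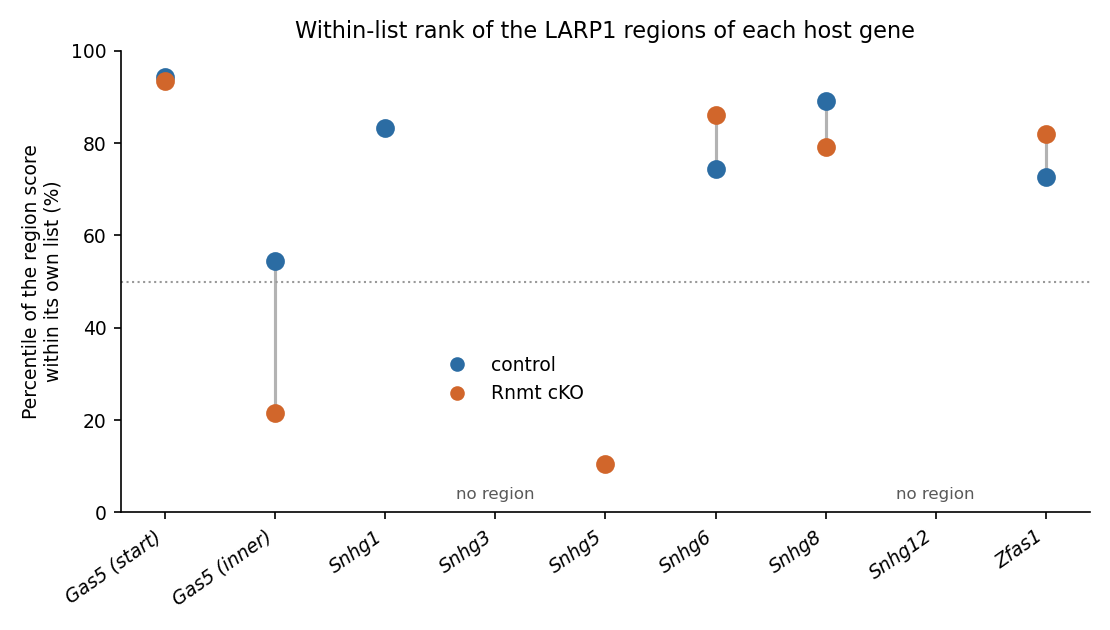
Percentile of each host region within its own list (vertical axis, 0 to 100%), with Gas5 split into its start and inner regions. Each point is 1 region from 1 library, grey lines join shared regions, and the dotted line marks the middle of a list. The start regions of Gas5, Snhg6, Snhg8 and Zfas1 sit between 72.6 and 94.4, and Snhg5 sits at 10.5.

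The 8 hosts were then set beside other hosts of snoRNAs. Of 65 other non-coding genes that hold a snoRNA on their strand, 4 carried an exonic region in control (6.15%) and 3 in Rnmt cKO (4.62%). The set of 65 holds every remaining annotated non-coding host, whether or not T cells transcribe it, and the shares are a description. The 4 genes were 2410006H16Rik, 1110038B12Rik, Epb41l4aos and Snhg17. Of these, 3 had a region close to an annotated start in both lists, with offsets of 4 nt and 0 nt in 2410006H16Rik, -2 nt and -2 nt (upstream) in 1110038B12Rik, and 2 nt and 1 nt in Epb41l4aos, for control and Rnmt cKO. Snhg17 had 1 control region, 363 nt from a start, at percentile 3.32.

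2410006H16Rik, the host of 3 annotated snoRNAs, also had regions beyond its start, with 1 in control and 4 in Rnmt cKO cells. Its start region had 1 site at percentile 62.0 in the control list, and 4 sites at percentile 91.7 in the Rnmt cKO list. The best-ranked regions of the other non-coding hosts had a median percentile of 60.1 in control and 54.9 in Rnmt cKO cells, against 83.2 and 82.0 for the 5 of the 8 hosts with a region in each list.

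Protein-coding hosts as a whole ranked higher. Of 279 such genes, 51 carried an exonic region in control (18.3%) and 57 in Rnmt cKO (20.4%), and their best-ranked regions had a median percentile of 96.0 and 95.4. The top of this set was held by ribosomal protein genes, namely Rps12 (rank 5), Rps16 (rank 8) and Rpl13a (rank 19) in the control list, and Rpl13 (rank 1), Rps20 (rank 3) and Rpl23a (rank 7) in the Rnmt cKO list. Ribosomal protein genes were then left out, and with them, as a step chosen after the values were seen, the regions of Gm45713 that also lie in exons of Rpl13a. Of the 249 hosts left, 21 in control and 27 in Rnmt cKO cells had a region, with medians of 84.0 and 66.7. Beside the 83.2 and 82.0 of the non-coding hosts, these medians were close in the control list and lower in the Rnmt cKO list. Over regions near a start alone, these protein-coding hosts had median percentiles of 90.9 and 92.8. The non-coding hosts had 83.2 and 82.0 there, lower in both lists. The best-ranked regions of the 87 ribosomal protein genes had medians of 98.1 and 97.8.

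Shares of regions near a start in the other sets are given as a description. Ribosomal protein genes had 204 exonic regions in 79 genes in the control list, of which 84 (41.2%) were near a start, and 357 in 81 genes in the Rnmt cKO list, of which 97 (27.2%) were. Protein-coding hosts had 44 of 110 regions near a start (40.0%) in control and 47 of 210 (22.4%) in Rnmt cKO cells. Protein-coding hosts outside ribosomal protein genes, without the regions shared with Rpl13a, had 17 of 34 near a start in the control list and 16 of 55 (29.1%) in the Rnmt cKO list, and other non-coding hosts had 3 of 5 in the control list (60.0%) and 3 of 7 in the Rnmt cKO list (42.9%). In control, the Wilson interval of the 8 hosts, from 43.6 to 97.0%, held the shares of the last sets named. It did not hold those of ribosomal protein genes or of all protein-coding hosts. In the Rnmt cKO list, where the interval was the same, every share given here lay below it. The interval covers counting error over 6 regions of 1 library, so it was not used as a test.

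**Figure D4:**
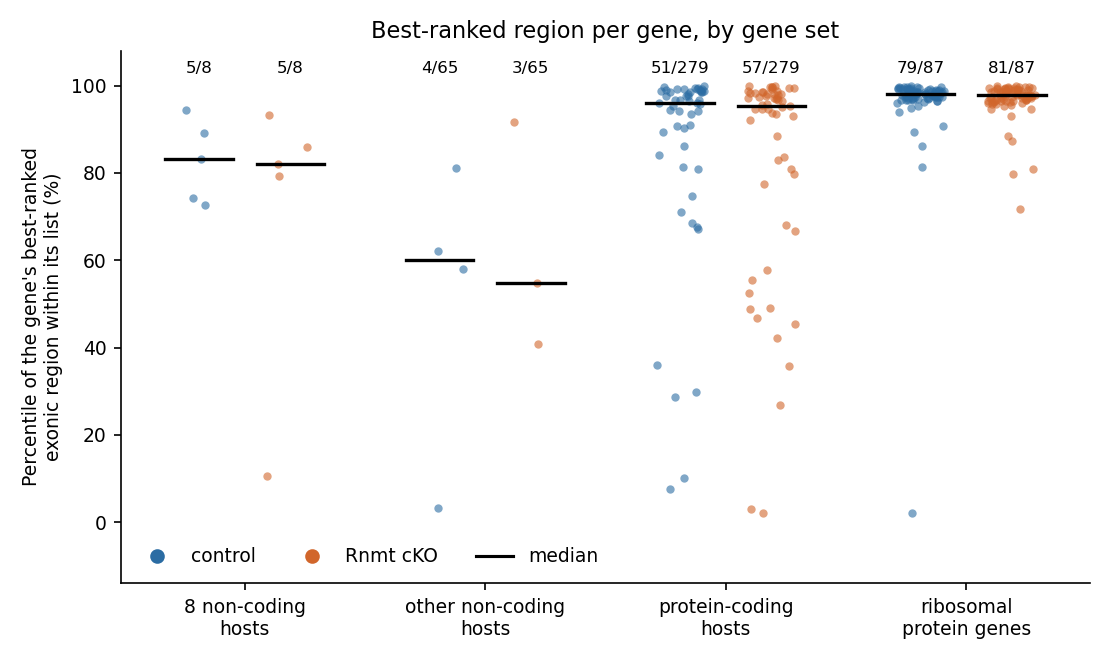
Percentile of the best-ranked exonic region of each gene within its list (vertical axis), by gene set and list. Each point is 1 gene with a region, black lines are medians, and the fractions above give genes with a region over genes in the set. The non-coding hosts named above have medians of 83.2 and 82.0, below those of protein-coding hosts and ribosomal protein genes. Some ribosomal protein genes stand in both of those sets. Protein-coding hosts outside ribosomal protein genes, without the regions shared with Rpl13a, had medians of 84.0 and 66.7 and are not drawn.

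Gas5, the host with the highest mean percentile over both lists, was matched with the genes whose best-ranked region was nearest to its own. The measure was the larger of the differences in percentile in the control and Rnmt cKO lists, over 392 genes with an exonic region in both. The nearest gene was Rpl39, a ribosomal protein gene, at percentiles 95.3 and 93.1, followed by Nap1l1, which encodes a histone chaperone, at 93.4 and 93.7, and Eif4a2, which encodes a translation initiation helicase, at 94.4 and 92.2. The larger differences were 0.847, 1.00 and 1.14 points. The regions of these genes lay at -19 nt, 3 nt and 2 nt from a start in both lists, where a negative value is upstream. Each of the 3 genes also holds an annotated snoRNA. The genes next in order, at 1.18 and 1.27 points, hold none, and the one after them, Ncl at 1.31 points, holds 3. Among the 392 genes, 47 were protein-coding hosts.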

How the data were processed

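LARP1 eCLIP was performed by the authors on control and Rnmt cKO CD4 T cells, which they call naive. For eCLIP they name a CD4 T cell kit and magnet sorting, and describe no separate selection of naive cells. Of the 12 samples, 6 were preliminary libraries that tested antibodies, and the other 6 were a LARP1 immunoprecipitation, an IgG immunoprecipitation and a size-matched input of each genotype. Groups followed the sample titles. The authors extracted barcodes (umi_tools), trimmed adapters (cutadapt), aligned reads to mm10 (STAR 2.5.2b, as in the submitters' processing notes), removed PCR duplicates and low-quality alignments, and called crosslink sites with PureCLIP against the input of the same genotype. The authors' later filter on read ratios to input and IgG, and their merging of regions, were not part of the deposited lists, so background regions remain. The deposited score of a region was the sum of its deposited site scores in 3189 of 3189 control and 2367 of 2367 Rnmt cKO regions. A score is not scaled between libraries. Read depth was unknown from the lists.

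Regions of chromosome Y were left out (10 control, 14 Rnmt cKO), as in the study. Regions were intersected with GENCODE M21 exons (GRCm38, which the authors call mm10) in Python 3.11.15 with numpy 2.4.6. The overlap minimum was 1 nt, starts were taken within 50 nt, and Wilson intervals had a level of 95% and cover counting error over regions only. Bases came from annotated transcript sequences and RefSeq promoter windows. The code was tested on simulated data. All 8 members were named, with the other non-coding hosts that had a region, the 3 best-ranked protein-coding hosts of each list and the 3 genes most like the best-ranked member. Members and lists were chosen with earlier results of these data known. With 1 library per genotype no test was run. Alternatives were minimum sites, minimum score, repeated scores, the annotation, the start window, the rule for sharing, the sequence window, chromosome Y and the ranking measure. One T cell marker that was looked up is not reported here.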

Additional observations from a re-analysis of the deposited data

How the results depend on the processing

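Of 106 summary values under alternative settings, 84 moved by less than their counting error and 22 by more. For median percentiles this error is narrow beside the spread of the regions. In the Rnmt cKO list a median moving from 80.7 to 82.2 by highest site counted as more. Its 6 regions ran from percentile 10.5 to 93.4. Of 115 values for single hosts, 60 moved less, 51 moved more and 4 changed sign. Measured from the 5′-most start, 2 regions in each list were near a start. With regions of at least 2 sites, 3 in each list were shared, and Snhg8 was lost from the Rnmt cKO list. Where sharing required the same first base, 3 in each list were shared too. With scores above the list median, Snhg5 was lost from it. The median percentile of control regions was 47.1 with at least 2 sites, 54.2 above the median, 69.6 without repeated scores and 68.0 by mean score per site. In the Rnmt cKO list it was 68.7, 68.1, 82.2 by highest site and 76.7 by mean per site. For best-ranked regions, the control median was 47.1, 63.8, 74.5 without repeated scores, 81.2 by highest site and 75.4 by mean per site, and the Rnmt cKO median was 68.7, 68.1 and 84.7 by highest site. A filter changes the list that ranks refer to. The Gas5 start region changed from -1.05 points (Rnmt cKO minus control) to 11.5 with at least 2 sites, 1.75 without repeated scores and 0.210 by highest site, and Snhg8 from -9.86 to 2.01 by mean per site. No paired analysis was possible because there was 1 LARP1 library for each genotype, and for the same reason no replicate could be left out. Depth, replicate spread and RNA levels are unknown, which limits each comparison between genotypes to a description.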

Other observations

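Genes within 1000 nt of the 8 hosts were looked up after the values of the hosts had been seen. The neighbours were Zbtb37 by Gas5, Slc3a2 by Snhg1, Gm17300 and Rcc1 by Snhg3, Mcmdc2 by Snhg6, Prss12 by Snhg8, Trnau1ap by Snhg12 and Znfx1 by Zfas1. Of these 8 genes, Zbtb37 had 1 exonic region in the control list, at percentile 36.3 and more than 1000 nt from Gas5, and 0 in the Rnmt cKO list. The other 7 had 0 regions in both lists. Slc3a2 is transcribed in the opposite direction from a 5′ end that lies 106 nt upstream of that of Snhg1. Znfx1, also on the opposite strand, has its 5′ end 81 nt downstream of that of Zfas1, so that these genes overlap. The 5′ end of Rcc1 lies 81 nt downstream of that of Snhg3 on the same strand, so that Rcc1 and Snhg3 overlap too.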
